A study of Mus musculus with 147 samples.

Results

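WT renin cells are described here across all genes of their transcriptome. They are the 51 wells whose source is named as WT renin cell, out of 147 wells of the series, and each well was loaded to hold 1 sorted cell. The cells came from the kidney cortex of Ren1c+/+ Ren1c-YFP mice on the C57BL/6 strain, which carry both renin alleles and a yellow fluorescent protein transgene under Ren1c regulatory sequence. The study's methods give 4 adult mice and 1 capture for this genotype, do not say which well came from which mouse, and say that both sexes were used in its experiments. The YFP-positive cells were sorted after digestion of the cortex with collagenase and trypsin, with dead cells stained by DAPI, captured on the Fluidigm C1 System, and converted to full-length cDNA with SMART-Seq v4 from polyadenylated RNA. The other wells of the series are Renin-null cells, which are not compared here.

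Renin cells are specialised arteriolar cells at the entry of the glomerulus. They make and store renin, the protease that starts the renin-angiotensin system by cutting angiotensinogen, and they release it when arterial pressure or salt falls. They share a lineage with vascular smooth muscle cells and pericytes, and smooth muscle cells of the arteriole can regain renin production when more renin is needed.

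Because wells are cells and not replicates, and no mouse is named per well, the 51 wells are 1 sample. Values are therefore given as the lowest, median and highest well, and nothing was tested across wells. The chemistry has no molecular identifiers, so copies made by PCR cannot be told apart from separate molecules.

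Mitochondrial transcripts set most of the wells apart. Of the 51 wells, 15 (29.4%, exact Clopper-Pearson 95% interval 17.5 to 43.8%) met 3 limits, which were at least 100000 counts, at least 1000 genes with a count, and at most 25% of counts in the mitochondrially encoded genes named mt-. These 15 are called quality wells, and wells keep the numbers of the sample labels. All 51 wells had at least 1000 genes and 48 had at least 100000 counts, whereas 17 were at or under the mitochondrial limit. Of the 36 other wells, 33 failed on the mitochondrial share alone, 2 on counts alone and 1 on both.

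The quality wells held 110872, 11209911 and 17124854 counts (lowest, median, highest), 2091, 5767 and 10791 genes with a count, and 1.62, 6.85 and 24.7% of counts in mt- genes. The other wells held 26401, 1153970 and 4500042 counts, with 3.27, 64.9 and 79.8% in mt- genes. Mt-Co3, a subunit of cytochrome c oxidase, took 27.7% of all mt- counts. The nuclear copies Gm10925, Gm28437, Gm28661 and Gm29216 are near matches to mitochondrial genes and took a median of 0.985% of counts in quality wells and 13.1% in the other wells. Levels are therefore given as nuclear CPM, the counts of a gene per 1000000 counts outside mt- genes and these copies. The quality wells held 92.3% of all nuclear counts of the 51 wells.

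**Figure D1:**
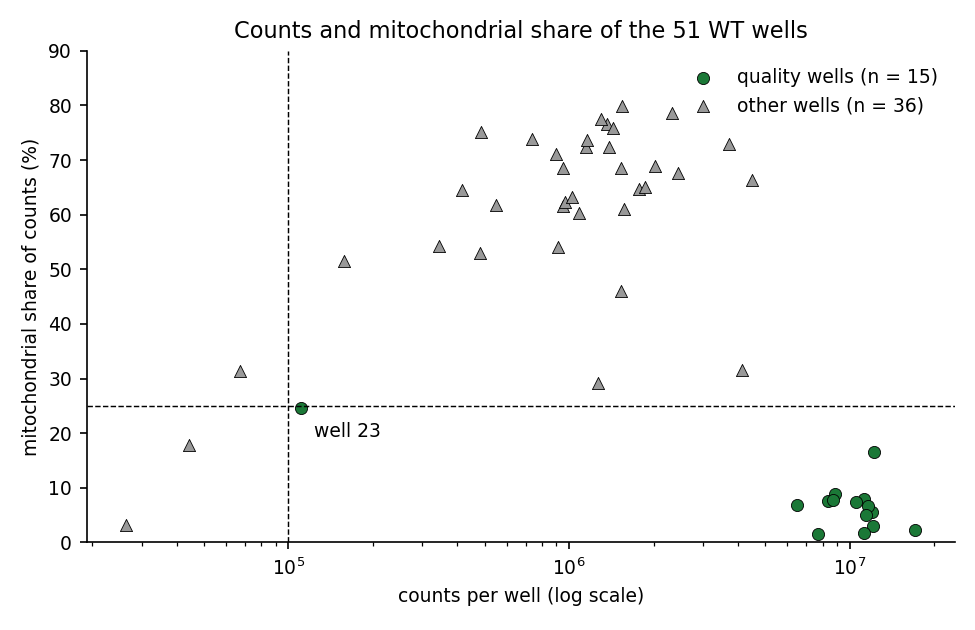
Counts per well (x axis, log scale) and percent of counts in mt- genes (y axis) for the 51 WT wells, with 15 quality wells as circles and 36 other wells as triangles; dashed lines mark 100000 counts and 25%. Quality wells other than well 23 lie at or above 6493362 counts and at or under 16.5%, and well 23 lies in the corner of both limits.

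Well 23 stood apart from the other quality wells. It held 110872 counts, of which 75316 were nuclear, and its mitochondrial share of 24.7% was just under the limit. Its mean correlation across genes was 0.543 with the other wells that failed the limits and 0.380 with the quality wells. It owned none of the genes with at least 1000 counts that had at least 80% of them in 1 well, while each of the other 14 quality wells owned between 84 and 261. Those 14 wells held at least 5972876 nuclear counts each, so this number cannot be told apart from depth. It was kept among the 15 quality wells, and the values it moves most are also given without it.

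Part of the counts in a well matched its neighbours on the index plate. Among 147 genes with at least 20000 counts and at least 80% of them in 1 well, 96.9% of the wells that shared the first index (i7) with that well also had a count, with a median of 342 counts per 1000000 of the source well's counts. The share was 85.6% in wells that shared the second index (i5), with a median of 185, and 32.3% in wells that shared neither index, with a median of 0. With the minimum lowered to 1000 counts, genes that belonged to 1 other well in this way took 0.326, 0.54 and 3.89% of nuclear counts in the 14 quality wells without well 23, 3.11% in well 23, and a median of 1.86% in the other 36 wells. A count minimum of 10 was used for this reason, and for the markers the counts were also set against an allowance. It is the counts of the wells that share an index times the 90% quantile of this spread. Wells that share neither index were left out of it, although their 90% quantile was 442 counts per 1000000, so the allowance is a low one.

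Renin itself was the leading transcript, at levels that ranged widely between wells. Ren1 lies at chr1:133350510-133360325 on GRCm38 and encodes renin. In the 15 quality wells its level was 751 (well 33), 62230 and 344085 nuclear CPM (well 35), which is 0.0751, 6.22 and 34.4% of nuclear counts, a 458-fold range. Without well 23 the median was 50691 nuclear CPM. Ren1 took more than 10% of nuclear counts in 6 quality wells (28, 8, 10, 43, 14 and 35) and under 1% in 5 (33, 5, 50, 44 and 3).

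The Ren1 counts were set against the allowance for wells with a shared index, which is a 90% quantile and not an upper limit. They exceeded the allowance in 14 of 15 quality wells, by 1.28 times in the lowest of them, well 33. In well 23 the 5288 Ren1 counts were 0.525 times the allowance. Across the quality wells the Ren1 level had a rank correlation (Spearman rho, n = 15) of 0.33 with total counts, -0.02 with the number of genes and -0.24 with the mitochondrial share, and all wells share 1 capture.

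The 36 other wells also carried renin. Their Ren1 level was 3983, 68541 and 618917 nuclear CPM, and 15 of them gave it more than 10% of nuclear counts. The counts exceeded the allowance in 27 of the 36. Well 29, with the highest level, held 432134 Ren1 counts beside 47 counts of Akr1b7, against an allowance of 63.8.

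Akr1b7, an aldo-keto reductase, is known as a marker of renin cells. It lies at chr6:34412334-34423142 on the plus strand. In quality wells it was at 13.3 (well 3), 3536 and 18851 nuclear CPM (well 14), and its counts exceeded the allowance in 14 of 15 wells, all but well 23. The 3 lowest wells (3, 33 and 50) had 13.3, 45.2 and 66.8 nuclear CPM, and all 3 are among the 5 wells with under 1% Ren1. The 4 highest (14, 8, 10 and 35) are among the 6 wells with over 10% Ren1.

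The promoters of these genes are shown because Akr1b7 had the highest rank correlation with Ren1 of all genes compared across wells, and that of Myl9, a contractile gene with a negative one, is shown beside them. Each line holds the 250 bases before the RefSeq start of the gene on GRCm38.p6, 5′ to 3′ on the gene's own strand, and capitals mark TATAAA in Ren1, CCAAT in Akr1b7 and the CArG box in Myl9.
Ren1 (chr1:133350424-133350673, plus strand): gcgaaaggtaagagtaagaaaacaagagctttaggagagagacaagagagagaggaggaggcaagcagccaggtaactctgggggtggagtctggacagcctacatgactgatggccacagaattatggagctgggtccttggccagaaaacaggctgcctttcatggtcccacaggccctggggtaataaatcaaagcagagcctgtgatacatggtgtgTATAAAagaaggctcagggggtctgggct
Akr1b7 (chr6:34412112-34412361, plus strand): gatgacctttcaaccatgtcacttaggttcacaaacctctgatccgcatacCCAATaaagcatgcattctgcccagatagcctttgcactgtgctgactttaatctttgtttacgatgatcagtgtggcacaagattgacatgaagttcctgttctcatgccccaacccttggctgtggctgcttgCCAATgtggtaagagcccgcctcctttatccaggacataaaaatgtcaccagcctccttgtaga
Myl9 (chr2:156775214-156775463, plus strand): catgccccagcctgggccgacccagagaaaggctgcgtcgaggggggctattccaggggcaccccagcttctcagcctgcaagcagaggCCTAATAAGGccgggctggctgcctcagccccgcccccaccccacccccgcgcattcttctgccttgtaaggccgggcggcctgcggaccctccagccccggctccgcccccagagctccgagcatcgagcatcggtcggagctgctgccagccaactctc

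The motifs were searched on both strands. They were the TATA box as TATAAA, the full cAMP response element as TGACGTCA, its first part alone as TGACG (also counted inside the full one), the E-box as CANNTG, the CAAT box as CCAAT, and the CArG box, the site of serum response factor, in its strict form with only A or T between CC and GG. Looser forms with another base there, such as those the Acta2 promoter is known for, were not counted. Ren1 held TATAAA from -29 to -24 before the start, as did 12.4% of all 32851 promoters of the table, and none of the other motifs as spelled here. Akr1b7 held CCAAT from -199 to -195 and from -64 to -60, a motif in 33.8% of promoters. Myl9 held a CArG box from -161 to -152, a motif in 1.47% of promoters. Acta2, on chromosome 19, held CANNTG at 3 places in this window, and CANNTG was in 66.2% of all promoters. TGACGTCA, in 1.55% of promoters, was in none of the windows of the named genes, and TGACG, in 17.8%, was in those of Dse and Aebp1. A match of letters is a description and does not show that a factor binds.

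The smooth muscle markers were present in most quality wells, though not evenly. Acta2, smooth muscle alpha-actin, was at 319 (well 23), 5063 and 19187 nuclear CPM (well 44), and without well 23 the lowest well was well 14 at 680. Myh11, smooth muscle myosin heavy chain, was at 1.34 (well 14), 2249 and 10849 nuclear CPM (well 6). Acta2 exceeded its allowance in 14 of 15 quality wells and Myh11 in 12. The 3 wells in which Myh11 did not were wells 14, 35 and 23, with 15, 59 and 6 counts.

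The 2 wells with the highest Ren1 held hardly any Myh11. Well 35 had 344085 nuclear CPM of Ren1, 9398 of Akr1b7, 4164 of Acta2 and 6.13 of Myh11. Well 14 had 315347 of Ren1, 18851 of Akr1b7, 680 of Acta2 and 1.34 of Myh11. The range among Ren1-rich wells was wide, since well 43, with 257462 nuclear CPM of Ren1, had 5660 of Acta2 and 2644 of Myh11. At the other end, well 33 had 751 of Ren1 with 7779 of Acta2 and 4421 of Myh11, and well 5 had 1261 of Ren1 with 8779 of Myh11.

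Checked against its markers, the label of renin cell rests on Ren1 and Akr1b7 counts above the allowance in 14 of the 15 quality wells. In well 23 neither exceeded it, with 5288 counts against 10081.5 for Ren1 and 359 against 389.5 for Akr1b7. The allowance leaves out wells that share neither index, and whether the lowest wells would exceed a wider one was not tested. The reporter's own transcript gave less. EYFP had at least 10 counts in 5 quality wells (10, 18, 35, 43 and 47), where it was over 100 nuclear CPM with a highest value of 2160, and in 9 of all 51 wells. Its rank correlation with Ren1 was 0.54 over the 15 quality wells and 0.06 over all 51 wells.

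**Figure D2:**
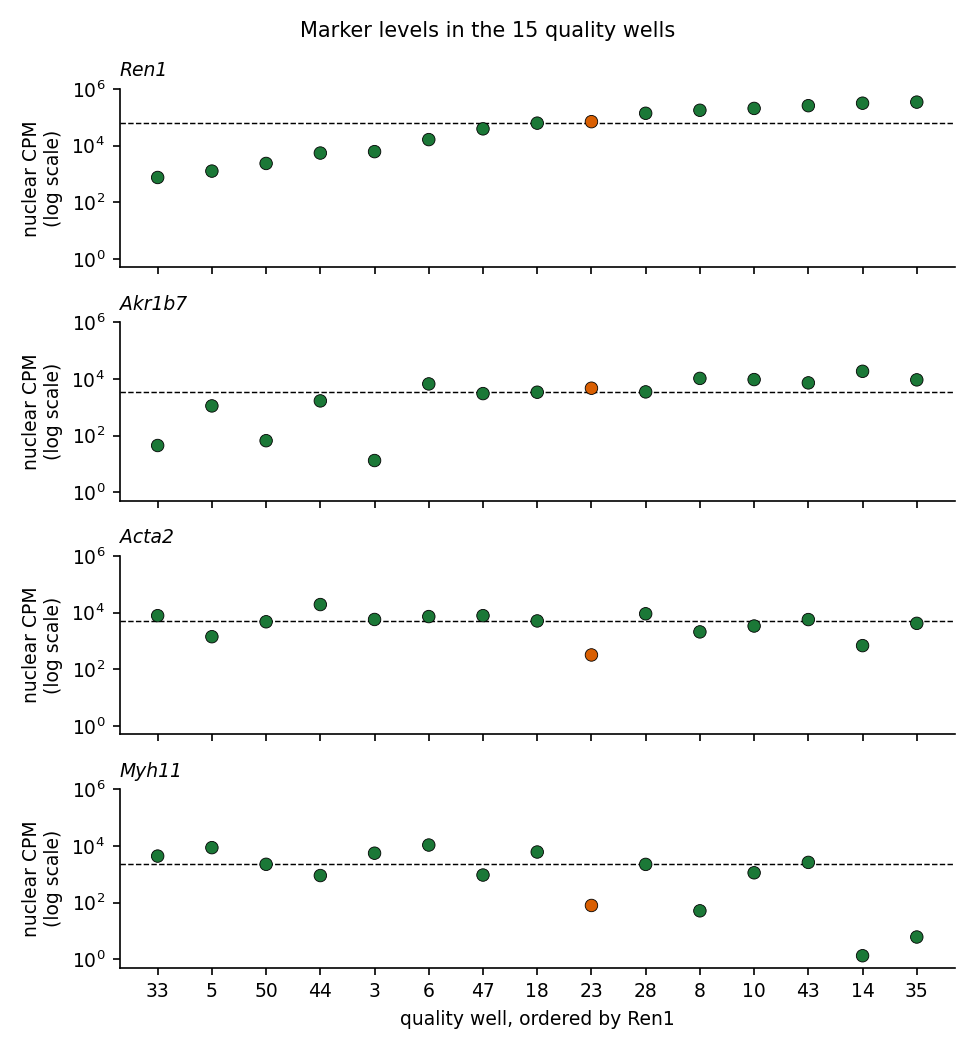
Level of Ren1, Akr1b7, Acta2 and Myh11 in nuclear CPM (y axes, log scale) in each of the 15 quality wells (x axis, ordered by Ren1); the dashed line is the median and well 23 is in orange. Akr1b7 is lowest in wells 3, 33 and 50, and Myh11 falls to 1.34 and 6.13 nuclear CPM in the 2 wells at the right.

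To compare genes with each other, counts were divided by the median transcript length of the gene and scaled to a sum of 1000000 (per-length CPM). On this scale Ren1 had a median of 84299 over quality wells, ahead of Actb at 7783. Ranks 3 to 5 were mural and smooth muscle genes. Rgs5, a regulator of G protein signalling found in pericytes, had 6418 per-length CPM, Tagln (transgelin, an actin-binding protein) 6066 and Myl9 (regulatory myosin light chain) 5477. Further down were Acta2 at 4332, Myl6, an essential myosin light chain, at 3116 and Flna, the actin crosslinker filamin A, at 3083.

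The rest of the first 20 were of other kinds. Crip1, a LIM domain protein, had 5163 per-length CPM and Sparcl1, a secreted matrix protein, 2147. The immediate early factor Fos had 4905 and Id3, an inhibitor of helix-loop-helix factors, 2995. The chaperones Hsp90aa1 and Hspa8 had 3671 and 3300, and polyubiquitin Ubb 2351. Translation genes were Eef1a1 at 2923 and Eif4g2 at 2571 per-length CPM. Akr1b7 ranked 12 at 3289, and Ywhaz, a 14-3-3 protein, and the cytoplasmic actin Actg1 completed the list with 3735 and 2072.

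Which gene came first depended on the well. Ren1 was the first gene per length in 9 of 15 quality wells, and the 20 genes together held a median of 16.8% of the per-length total, or 8.72% without Ren1. In the other wells the first gene was Flna (well 3), Olfr539 (well 5), Bhlhe41 (well 23), Actb (well 33), Myl9 (well 44) and Ntrk3 (well 50). These places depend on the length used. Flna was divided by 832 bases and Rgs5 by 2409.5, while in nuclear CPM Flna was below Rgs5 in well 3 (11183 against 15120). Of the 20 genes, 14 kept a place with the longest transcript and 15 without a length. In well 33 Ren1 ranked 249. Olfr539, an olfactory receptor gene, had 99.4% of its counts of all wells in well 5. With all 51 wells in the ranking, 8 of the 20 genes kept a place among the first 20 and Gm20594 came first.

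**Figure D3:**
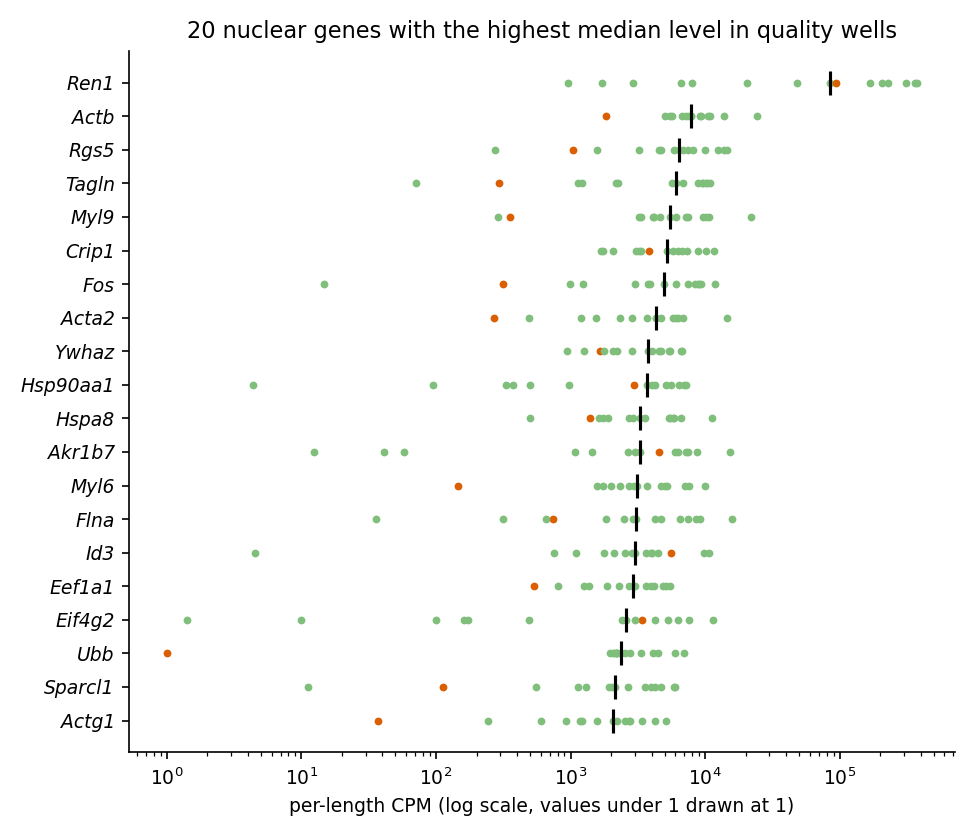
Per-length CPM (x axis, log scale) of the 20 genes with the highest median in quality wells; each point is 1 of the 15 wells, well 23 is in orange and the black tick is the median. Ren1 spans from 965 to 376634, with a median of 84299, and the medians of the other 19 lie between 2072 and 7783.

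Few genes were found in most wells. At 10 counts or more, 12470 genes were found in at least 1 quality well and 3579 of them (28.7%) in exactly 1. In at least 12 of the 15 wells 546 genes were found, which is 3.21% of the 17030 nuclear genes with a count in any well, and 76 were found in all 15. Without well 23, 186 genes were found in all 14. When each well was thinned to the 75316 nuclear counts of the shallowest, 105 genes were found in at least 12 wells.

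The genes found in every quality well included Ren1, contractile genes and ribosomal protein genes. By their lowest well, the 10 leading ones were Actb (at least 1301 nuclear CPM in every quality well, or 4323 without well 23), Crip1 (848), Ren1 (751), Rgs5 (663), Ywhaz (591), Bhlhe41 (567), Fth1 (497), Hspa8 (400), Eef1a1 (372, or 623 without well 23) and Btg1 (334). Bhlhe41 is a clock-related repressor, Fth1 the heavy chain of ferritin and Btg1 an antiproliferative factor. The median of Bhlhe41 was higher in the 36 other wells, at 49043 nuclear CPM against 1235 in quality wells. Akr1b7, Acta2, Tagln, Myl9 and Cald1 were also among the 76, as were the transcription factors Mef2c, Ebf1, Epas1 and Zfhx3 and the nuclear lamina gene Lmna, which were named after their values were seen. Of 89 genes of ribosomal proteins, 61 were found in at least 12 wells, against 3.21% of all nuclear genes, and 5 were among the 76 found in every well. Their sum was 10117, 25894 and 43159 nuclear CPM.

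Most genes differed widely between wells. Over 1417 genes with a mean of at least 50 nuclear CPM and 10 counts in at least 8 of the quality wells, the standard deviation (SD) of log2(nuclear CPM + 1) had a median of 3.53 (quartiles 3.13 and 3.86). It was over 4 in 238 genes and under 1 in 11. The SD was 3.05 for Ren1, 3.17 for Akr1b7, 1.53 for Acta2 and 3.78 for Myh11, so that 303 of the genes varied less than Ren1 and 30 less than Acta2.

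The steadiest genes were Fth1 (SD 0.80), Actb (0.82, or 0.57 without well 23), the polyubiquitin pseudogene Ubb-ps (0.83), Mmachc (0.83), Rpl41 (0.87), Ywhaz (0.89), Eif1 (0.89), Crip1 (0.89), Hnrnpl (0.91) and Cdc45 (0.95). Fth1 was at 497, 920 and 2265 nuclear CPM, and Actb at 1301, 5920 and 18623. Mmachc acts in cobalamin handling and Cdc45 in DNA replication. Ubb-ps shares sequence with Ubb and its counts are uncertain.

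The genes with the largest SD were each over 100 nuclear CPM in some quality wells and under 1 in others. They were Syne2 (SD 5.05), Hnrnpr (5.02), Tpm3 (4.78), Utrn (4.77), Tsn (4.74), Cav1 (4.72), Hspa5 (4.68), Spin1 (4.68), Sat1 (4.68) and Lifr (4.67). Syne2, a nesprin that links the nucleus to the cytoskeleton, was under 1 nuclear CPM in 4 quality wells and over 100 in 7, with a highest level of 6390. Hspa5, the chaperone of the endoplasmic reticulum, was under 1 in 4 wells and over 100 in 8, with a median of 484 nuclear CPM. Cav1, which builds caveolae, was under 1 in 6 wells and over 100 in 5.

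Some genes had most of their counts in 1 well. Among 6961 genes with at least 1000 counts, 2326 (33.4%) had at least 80% of them in 1 of the 51 wells. Mkln1, encoding muskelin, had 85.5% of 193523 counts in well 35, though it had at least 10 counts in 12 quality wells and reached 11220 nuclear CPM in another, shallower well against 17187 in well 35. Klhl24 had 83.1% of 130867 in well 8 and at least 10 counts in 14 quality wells.

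The levels of other genes were then set against Ren1 across the 15 quality wells. Of 978 genes with at least 10 counts in at least 10 of them, 13 (1.33%) had a rho with Ren1 of 0.6 or above and 23 (2.35%) one of -0.6 or below, and the median of all was -0.03. These are descriptions of 15 wells that share a capture, and Ren1 is part of the nuclear total by which each level is divided. The balance turned with the scaling. With Ren1 taken out of the denominator 22 genes were at 0.6 or above and 11 at -0.6 or below, among them all of the 13 and 11 of the 23. With size factors from the median of ratios the numbers were 19 and 10, among them 11 of the 13 and 6 of the 23.

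Akr1b7 followed Ren1 most closely. Its rho was 0.88, and it stayed between 0.86 and 0.89 when each well was left out in turn. It was 0.90 with Ren1 out of the denominator, 0.87 without well 23 and 0.28 over all 51 wells. Second was Gm13857, with a rho of 0.78 and 0, 18.2 and 3126 nuclear CPM. It is annotated as a transcribed pseudogene at chr6:34419396-34445436 on the minus strand and overlaps the 3′ part of Akr1b7, which is on the plus strand, so that without strand the reads of this stretch cannot be told apart. Its level was no fixed share of that of Akr1b7, with 0.13 nuclear CPM beside 3442 in well 18 and 3126 beside 7357 in well 43.

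The other named followers were low and patchy. Mgp, matrix Gla protein and an inhibitor of calcification, had a rho of 0.68 and was at 0.251, 112 and 3336 nuclear CPM. It was over 1000 in 4 wells (8, 10, 14 and 35), each with over 10% Ren1, but well 33, with the lowest Ren1, had 569. Sfrp2, a secreted Wnt modulator, had a rho of 0.67 and was at 0.182, 77.4 and 1157 nuclear CPM, with its highest values in wells 35 and 14. Psmc6, a proteasome subunit, had a rho of 0.70, Epn2, an endocytic adaptor, 0.67, and Ano1, a calcium-activated chloride channel, 0.64. Their medians were 39.8 (65.7 without well 23), 143 and 22.8 nuclear CPM.

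Dse, Rps23-ps1 and Pcm1 closed the list, with rho of 0.68, 0.63 and 0.62. Dse, an epimerase of dermatan sulfate, was at a median of 3.52 nuclear CPM, and 44.7% of its counts lay in 1 well. Pcm1, a protein of centriolar satellites, had a median of 7.67 and 74.1% of its counts in well 8. Rps23-ps1 is a processed pseudogene and shares sequence with Rps23, so its counts are uncertain. With a minimum of 10 nuclear CPM in place of 10 counts, 592 genes were compared, and 7 were at 0.6 or above and 18 at -0.6 or below. Leaving out 1 well at a time gave 6 to 17 genes at 0.6 or above, with the lowest number without well 5.

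Of the 23 genes that ran against Ren1, 4 are on the contractile list (Myl9, Tpm1, Tagln and Myh11), and 1 of these stayed at or below -0.6 with Ren1 out of the denominator. Ppp1r12a, the targeting subunit of myosin phosphatase, had a rho of -0.76 (-0.76 with Ren1 out of the denominator) and was at 46.7 (well 35), 3221 and 12566 nuclear CPM (well 33). Pdlim7, a LIM protein of actin filaments, had -0.73 (-0.70), Dmd, dystrophin, -0.68 (-0.63), and Actg1 -0.71 (-0.64). Vim, the intermediate filament vimentin, had -0.69 (-0.66) and was at 0.268 and 0.312 nuclear CPM in wells 14 and 35, against 1886 in well 44. Aebp1, a matrix-associated protein, had -0.69 (-0.67). With size factors Ppp1r12a had -0.54, Actg1 -0.55, Aebp1 -0.52 and Myl9 -0.42, and Pdlim7, Dmd and Vim had -0.75, -0.71 and -0.61. Myl9 had -0.72, which was -0.53 with Ren1 out of the denominator.

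The lowest rho of all belonged to 2 of the steadiest genes. Cdc45 had -0.86 and was at 88.1, 394 and 714 nuclear CPM, and Mmachc had -0.79 at 60.6, 159 and 354. With Ren1 out of the denominator the values were -0.77 and -0.70, and with size factors -0.49 and -0.58. Eef1akmt3, a lysine methyltransferase of a translation factor, went from -0.74 to -0.60. Upstream sequences were at hand for 9 of the 10 named genes that ran against Ren1. The strict CArG box was in those of 3 genes, Myl9, Actg1 and Dmd (1 of its 2 starts), and in 1.47% of all promoters, and whether it goes with the rho was not tested.

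**Figure D4:**
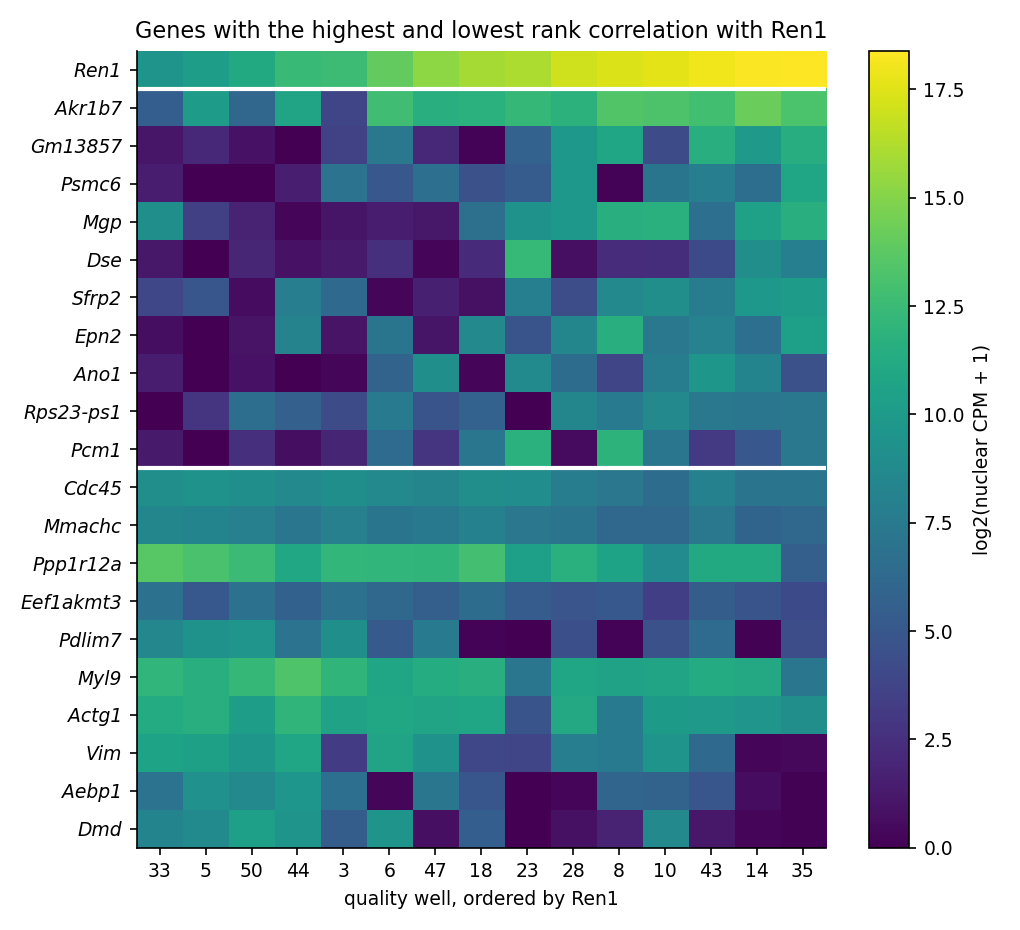
Level as log2(nuclear CPM + 1) (colour) of Ren1, the 10 genes with the highest rho and the 10 with the lowest rho (rows, separated by white lines) in the 15 quality wells (columns, ordered by Ren1). Akr1b7 is brightest in well 14 at 18851 nuclear CPM, the genes below it are dark in many wells, and Vim, Aebp1 and Dmd are dark in wells 14 and 35.

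The contractile list as a whole tended to be lower where Ren1 was higher. Of its 16 members, 9 were found at 10 counts in at least 12 quality wells, against 3.21% of all nuclear genes, and 1 (Actg2) was at 0 in all wells. Its sum was 7370 (well 35), 28296 and 58585 nuclear CPM (well 44), and its rho with Ren1 was -0.77, or -0.76 without well 23. All 11 members with enough counts had a rho below 0, with a median of -0.46 against -0.03 for all 978 genes, and 4 (Myl9, Tpm1, Tagln and Myh11) were at or below -0.6, against 2.35% of all genes. With Ren1 out of the denominator the rho of the sum was -0.70, all 11 were below 0 and 1 was at or below -0.6, and with size factors the values were -0.36, 9 and 1. Acta2 itself had a rho of -0.36, or -0.21 with Ren1 out of the denominator and 0.01 with size factors.

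The list of other mural genes had a sum of 3867 (well 35), 16772 and 33239 nuclear CPM (well 28). Rgs5 was at 663 (well 35), 13769 and 32372 nuclear CPM (well 28), so it was the smaller part of the sum in well 35. Of 15 members, 5 were found in at least 12 wells, against 3.21% of all nuclear genes, and Kcnj8 and Foxd1 were at 0 in all wells. Gata3, Notch3 and Rgs4 had medians of 335, 314 and 159 nuclear CPM. The rho of the summed list with Ren1 was -0.54, or -0.29 with Ren1 out of the denominator and -0.10 with size factors. Rgs5 had -0.51, -0.38 and -0.12 in the same order. Of 9 members with a rho, 5 were below 0 and none was at -0.6 or below or at 0.6 or above, and their median was -0.11, against -0.03 for all genes compared.

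Of 10 members of the renin-angiotensin list, 3 (Ren1, Agtr1a and Enpep) were found in at least 12 quality wells, against 3.21% of all nuclear genes. In all 51 wells 6 members were at 0, among them Agt (angiotensinogen), Ace, Agtr1b, Agtr2 and Mas1. Of all 35438 genes in the counts, 17047 had a count in any well. Agtr1a, the angiotensin receptor that holds renin release down, had a median of 177 nuclear CPM and at least 10 counts in 12 of 15 quality wells. Enpep, the peptidase that trims angiotensin, had a median of 40.0 with 10 counts in 14 wells. Atp6ap2, the prorenin receptor, was at 5.19 with 10 counts in 11.

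Genes of the cAMP pathway, which drives renin synthesis and release, formed a further list. Of 31 members, 30 had a count, 5 were found in at least 12 quality wells (against 3.21% of all nuclear genes) and the sum was 1531, 4450 and 8097 nuclear CPM. Akap13, an anchoring protein of protein kinase A, had the highest median at 518, followed by Gnas, the stimulatory G protein, at 451, the phosphodiesterase Pde3a at 151 and the regulatory subunit Prkar1a at 137. Crebbp, a coactivator of CREB, had 58.1, and adenylyl cyclases Adcy6 and Adcy5 had 4.36 and 0.921. Prkar2b was at 0 in all wells. The sum had a rho with Ren1 of 0.05, or 0.32 with Ren1 out of the denominator.

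Among receptors and channels that act on renin release, Glp1r stood out by level. The receptor for glucagon-like peptide 1 had 0, 1076 and 3679 nuclear CPM and at least 10 counts in 14 of 15 quality wells. It was over 1000 in 8 wells and under 4 in 5 (8, 14, 23, 35 and 47), and its rho with Ren1 was -0.55. Itpr1, Calcrl and Ednra had medians of 132, 117 and 117 nuclear CPM, and Gja5, which encodes connexin 40, had 7.81. Ptger4, Casr and Piezo1 were at 0 in all wells, and 4 of 27 members were found in at least 12 quality wells, against 3.21% of all nuclear genes.

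Of 21 transcription factors of renin cells, Mef2c and Ebf1 were found in every quality well, and no other member was found in at least 12, which is 2 of 21 against 3.21% of all nuclear genes. Mef2c, a factor of muscle gene expression, was at 250, 1129 and 5255 nuclear CPM, and Ebf1 at 1.97, 97.4 and 5243. Meis1 had a median of 68.9, and Hey1 and Foxd1 were at 0 in all wells. The median rho with Ren1 of the 4 members with enough counts was -0.53, against -0.03 for all 978 genes, and that of the sum was -0.61. With Ren1 out of the denominator the sum had -0.56, and with size factors it had -0.39, while Mef2c went from -0.58 to -0.30, Ebf1 from -0.52 to -0.62 and Meis1 from -0.54 to -0.62.

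The next list held genes of the secretory pathway and the granule. Ctsb, cathepsin B, which can process prorenin, had 0.486, 1416 and 12633 nuclear CPM, Hspa5 a median of 484 and the chaperone Canx 396. Of 29 members, 3 were found in at least 12 wells (against 3.21% of all nuclear genes), Scg2, Scg3 and Chgb were at 0 in all, and 4 had enough counts for a rho with Ren1. It was 0.44 for P4hb, 0.29 for Ctsb, 0.20 for Spcs1 and -0.55 for Canx, and 0.03 for the sum.

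Early response genes, which tissue digestion can turn on, were found in many wells. Of 20 members, 13 were found in at least 12 quality wells, against 3.21% of all nuclear genes with a count, and 5 in every one. Fos, Egr1, Hsp90aa1, Btg2 and Atf3 had medians of 3785, 2424, 1796, 1362 and 810 nuclear CPM. The sum was 867 (well 35), 19086 and 36393 nuclear CPM, with a rho with Ren1 of -0.25. Well 35, with the highest Ren1, was the lowest well for this sum and also for those of the contractile, mural, transcription factor and cAMP lists. Ren1 took 34.4% of its nuclear counts, which lowers each of these sums. With Ren1 out of the denominator well 35 was still the lowest for the contractile list, at 11236. It would not be the lowest for the cAMP list (1531, against 1692 in well 5 with 0.126% Ren1) or the transcription factor list (775, against 850 in well 23 with 7.02%). The part of the dissociation in the early response levels was not tested.

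Transcripts of other kidney cell types were found in some quality wells. No member of the lists for red blood cells, leukocytes, endothelium, podocytes, collecting duct, proximal tubule or the loop and distal tubule was found in at least 12 quality wells, but neither were most genes, since 3.21% of all nuclear genes were. The summed level was at least 100 nuclear CPM in 6 quality wells for the proximal tubule, 6 for podocytes, 5 for endothelium and 1 for the collecting duct, and in none for the others. The proximal tubule sum was 0.754, 60.9 and 2768 nuclear CPM, highest in well 10, where Gpx3 was at 1300. Well 10 also held the highest collecting duct sum, 204, with Hsd11b2 at 140.0, and the most Mgp. Of the quality wells it had the most genes with a count (10791). It also had the largest share of nuclear counts in genes that belonged to 1 other well (3.89%). The part of other cells' RNA in its values was not tested. The endothelial sum was 0.56, 8.42 and 1670, highest in well 43, where Ehd3 was at 1308, while Cdh5, Tek and Plvap were at 0 in all wells. The podocyte sum had a median of 37.0 and a highest value of 706.8, of which Synpo was most, and Podxl was at 0.

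Leukocyte and red cell genes were near 0 in the quality wells. There, the leukocyte sum reached 19.1 nuclear CPM, with Cd68, C1qa, C1qb, C1qc, Lyz2 and Cd3e at 0 in all wells, and the red cell sum reached 7.42. In well 42, which is not a quality well, the red cell sum was 8566 nuclear CPM, with Hba-a1, Hba-a2 and Hbb-bt at 0. In quality wells the loop and distal tubule sum reached 5.36. Fibroblast and matrix genes were higher, with a sum of 20.3, 2450 and 5680 nuclear CPM. Medians of single members were 272 for Sparc, 112 for Mgp and 66.4 for Bgn. The basement membrane collagens Col4a2 and Col4a1 had 60.9 and 29.1, and the fibroblast markers Col1a1 and Dcn 0.292 and 0. Of the 10 cell cycle genes 1 was found in at least 12 wells, against 3.21% of all nuclear genes. It was Ccnd2, with a median of 332, and Mki67 was at 0 in all wells.

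**Figure D5:**
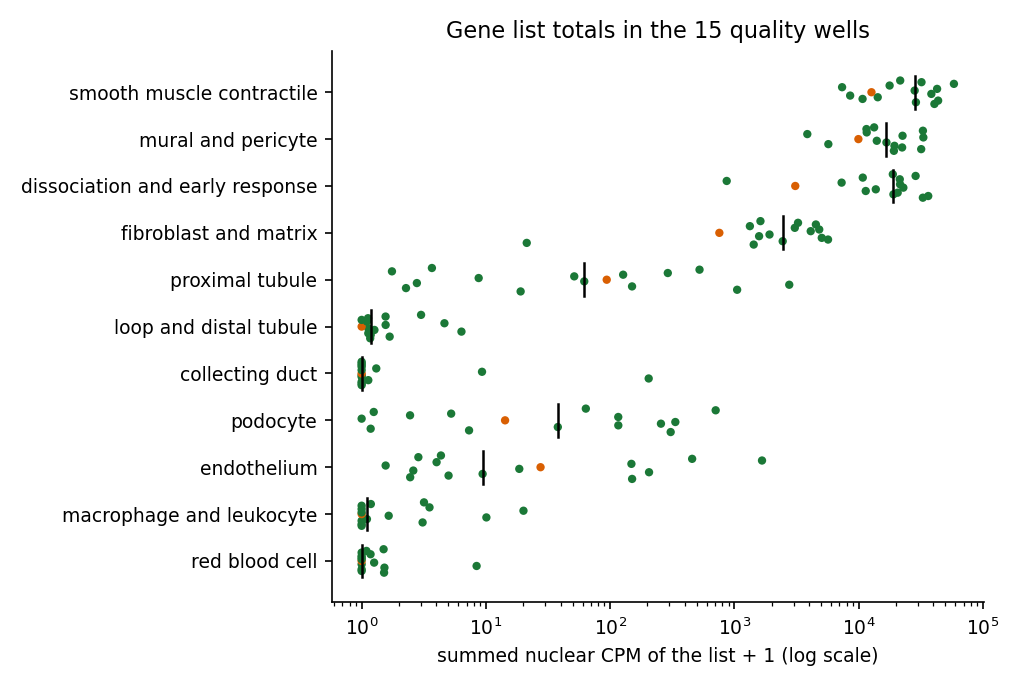
Summed nuclear CPM plus 1 (x axis, log scale) of each gene list (rows) in the 15 quality wells; each point is a well, well 23 is in orange and the black line is the median. Contractile, mural and early response lists have medians of 16772 or above, and the tubule, duct, podocyte, endothelial, leukocyte and red cell lists have medians of 60.9 or below.

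The 36 other wells were shallower, with a median of 203812.5 nuclear counts against 9699727 in quality wells and a median of 3073.5 genes with a count against 5767. Their leading genes by median nuclear CPM were Ren1 (68541), Gm20594 (61398, against 610 in quality wells), Bhlhe41 (49043, against 1235) and Gm28438 (10471, against 234). Gm28438 lies beside the nuclear copies set aside above, and with it and Gm20594 set aside as well the median Ren1 share of the other wells went from 6.85 to 7.75%. Bhlhe41 was at 81417 nuclear CPM in well 23, which in this too was like the other wells. Akr1b7 had a median of 1076 in the other wells, Acta2 295 and Myh11 174, and their counts exceeded the allowance in 16, 5 and 4 of the 36 wells.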

How the data were processed

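Single WT renin cells were profiled with the Fluidigm C1 System, SMART-Seq v4 and Nextera XT, without molecular identifiers. Per the submitters' processing notes and the study's methods, the reads were checked with FastQC 0.11.5, trimmed with Trimmomatic 0.39 and quantified with Salmon 0.11.2 on GRCm38.p6, and transcripts were summed to genes with tximport and lengthScaledTPM. What the authors deposited is a table of expected counts, 35438 genes by 51 wells, with no scaling to depth. They were rounded to whole numbers. The table of Renin-null cells was not used. Wells were grouped by the label of their source, and no comparison between groups was made and no p-value was computed.

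Levels are nuclear CPM within a gene, and between genes counts per transcript length (median transcript of GENCODE M21, GRCm38, with a length for 96.6% of nuclear genes and 98.9% of nuclear counts) scaled to 1000000. Logarithms used a pseudocount of 1. The depth per well ranged from 26401 to 17124854 counts, and the interval given covers counting error only. No doublet caller was run. Upstream sequences came from RefSeq, and 17 of 23 named genes asked for had one. Myh11, Gm13857, Mgp, Rps23-ps1, Pcm1 and Eef1akmt3 had no entry.

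Named were the markers, the 20 genes highest per length, the 10 leading genes of those in every quality well, 10 genes from each end of the SD, 10 from each end of rho, and list members. The members, lists and limits were chosen with earlier results of these data known, and the setting aside of Gm28438 and Gm20594, the results without well 23 and the minimum of 10 nuclear CPM were added after the data were seen. Some genes that meet the rule are not reported here. Calculations used pandas 2.3.3, numpy 2.4.6 and scipy 1.17.1 under Python 3.11.15, and figures matplotlib 3.10.9.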

Additional observations from a re-analysis of the deposited data

How the results depend on the processing

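No paired analysis was possible because no groups were compared. The number of quality wells was 18 with a mitochondrial limit of 50% and 14 with either stricter limit on counts or genes. The median Ren1 share was between 4.77 and 6.62% under the alternatives that take a median over wells, and the share of the counts summed over quality wells was 12.4%. Genes found in most wells numbered 2237 at 1 count, 349 at 10 nuclear CPM (279 without well 23), 145 over all 51 wells and 105 after thinning, and 372 to 522 with 1 well left out. Of the 20 most abundant genes, 8 were kept over all 51 wells, at least 14 under each other setting, and 19 to 20 with 1 well left out. The median SD was 2.39 with a pseudocount of 10, 2.99 without the filter and 2.89 over all 51 wells, and 3.53 to 3.58 with 1 well left out.

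Genes that followed Ren1 numbered 22 with Ren1 out of the denominator, 19 with size factors, 9 by Pearson correlation, 62 without the filter, 7 at 10 nuclear CPM, 6 at a mitochondrial limit of 50%, 2 after thinning and 0 over all 51 wells. Genes that ran against it numbered 11, 10, 15, 54, 18, 16, 11 and 0 under these settings. With 1 well left out they numbered 6 to 17 and 16 to 27. Of the 20 named genes, 15 stayed past 0.6 in size without any 1 well, and none changed sign. The causes of these changes were not tested, other than that thinning left 218 genes and all 51 wells 239 genes to compare. All values come from 1 capture of 4 mice with no mouse named per well. Counts that may stem from wells with a shared index limit what can be said of genes at a few nuclear CPM, and in the wells under 100000 counts a missing gene was not detectable at this depth.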
